A study of Aspergillus nidulans with 32 samples.

Results

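Aspergillus nidulans mycelium that had been starved, refed and starved again was compared with mycelium in its first starvation, to see which genes regained the first-starvation level within 1 h and which did not. The comparison took every library that the labels place in these groups, 8 of the 32 libraries of the series, from 4 of 16 cultures in 2 of 8 groups. Second 1 h salt cultures had grown for 20 h in a minimal medium whose carbon source was glucose and whose nitrogen source was nitrate, then spent 4 h in a salt solution, 2 h in fresh medium and a last 1 h in the salt solution. First 4 h salt cultures had grown for 20 h and spent 4 h in the salt solution. The salt solution was the same medium without its carbon and nitrogen sources, so the cells lost glucose and nitrate together. All were mycelium from shaken flasks, and each group had cultures A and B (n = 2). The labels name 2 strains, the wild type FGSC#4 and the strain alcA(p)-sGFP-aflR (RKIS42.17), in which the alcA promoter drives a tagged aflR by its name, and do not say which strain gave which culture. The technical libraries 1 and 2 of a culture were summed.

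Other groups served as points on the way. Refed 2 h cultures had grown for 20 h, starved for 4 h and spent 2 h in fresh medium, the state just before the second exposure. Grown cultures spent 24 h in minimal medium. Naive 1 h salt cultures had grown for 24 h, spent 2 h in fresh medium and 1 h in the salt solution, so this was their first starvation, and naive refed cultures stopped before that salt step. Between second and first salt, the length of the exposure, its order and the refeeding in between changed together and cannot be told apart. The series title asks about transcriptional memory of secondary metabolite production.

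A filamentous fungus that loses its carbon and nitrogen source stops making glycolytic and nitrate-assimilating enzymes, opens pathways for poorer nutrients, and later secretes chitinases and proteases that break down its own hyphae. Starvation on this longer scale also calls up spore formation and secondary metabolites, small molecules made by enzymes whose genes often lie side by side in clusters. Velvet proteins and the LaeA protein tie these developmental and metabolic programmes together in Aspergillus nidulans.

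The 8 libraries held 27909281 to 33202687 counts and the 4 cultures 56288240 to 66121549 counts. Levels are given in CPM, counts per 1e6 after scaling by trimmed means (TMM). They are not divided by gene length, so they compare samples and not genes. Changes are log2 fold changes, second 1 h salt minus first 4 h salt, with their standard error (SE). A gene was called higher or lower at an adjusted p under 0.05 in edgeR's quasi-likelihood test with Benjamini-Hochberg adjustment over 10022 tested genes, and every adjusted p below comes from that test. The labels call A and B biological replicates without saying whether they were separate flasks or days. Every p rests on the spread between cultures A and B within groups, estimated jointly over the 16 cultures of all 8 groups. In whole mycelium, fewer cells of a type and less RNA per cell cannot be told apart.

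After 1 h of renewed starvation the mycelium lay near its first-starvation state and far from the refed one. The median absolute log2 difference per gene was 0.356 between second and first salt, 1.10 between second salt and refed 2 h, and 0.192 between the 2 second salt cultures against 0.184 between the 2 first salt cultures. Of 10022 genes, 1752 were called higher (17.5%) and 1659 lower (16.6%) in second than in first salt, 34% in all. These shares are the background for all counts below of list members called in second against first salt. Among them, 430 higher and 740 lower genes changed at least 2-fold. Higher calls made up 51.4% of all calls with TMM and 62.0% when the counts were scaled by library totals alone. That scaling moved the median log2 change of all genes to 0.12, against 0.02 with TMM. Leaving out second salt culture A left 2188 calls, and leaving out first salt culture B left 2131.

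**Figure D1:**
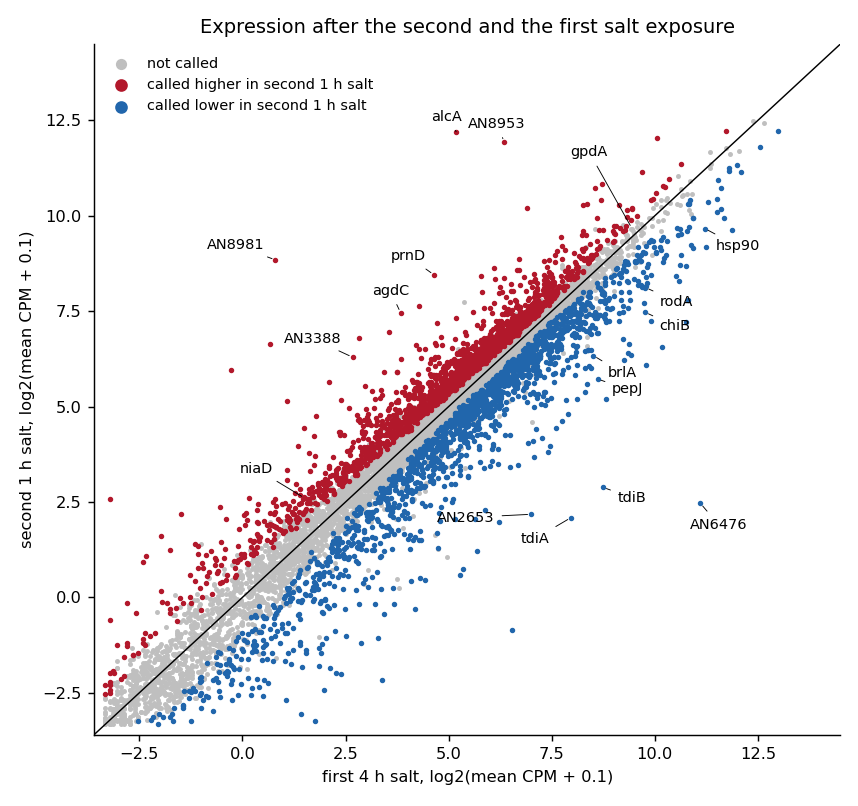
Mean level of each tested gene (n = 2 cultures per group) after the second 1 h in salt (vertical axis) against the first 4 h in salt (horizontal axis), both as log2 of mean CPM plus 0.1, with the line of equal levels and some genes of the text labelled. Red points are the 1752 genes called higher in second salt and blue points the 1659 called lower; AN6476 and the terrequinone genes lie far under the line, and alcA and AN8953 far above it.

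Genes with a level to regain were taken from calls around the first starvation. Raised genes were called higher in first salt than in grown cultures and lower again in refed 2 h than in first salt, which held for 3323 genes, and lowered genes were called in the mirror direction, which held for 2882. The background for these calls was high. In first salt against grown cultures 73.4% of tested genes were called, 38.8% higher and 34.6% lower, and in refed 2 h against first salt 76.3%, 35.2% higher and 41.1% lower. A gene was counted as back within 2-fold when the whole 95% interval of its second minus first change lay inside 1 log2 unit of 0. Of the rest, genes called on the side of the refed level were counted as still on the refed side, genes called on the opposite side as past the first-salt level, and the others as unresolved. The refed side names only the side of first salt, and second salt could lie beyond the refed level. In second salt against refed 2 h, 74 of the raised and 29 of the lowered genes were called as moving further from first salt.

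Back within 2-fold was the most frequent class in both sets after 1 h. Of the raised genes 2004 (60.3%) were back, 587 (17.7%) were still on the refed side, 311 (9.36%) were past the first-salt level and 421 (12.7%) were unresolved. Among the lowered genes 2047 (71.0%) were back, 248 (8.61%) were still on the refed side, 195 (6.77%) were past it and 392 (13.6%) were unresolved. A gene counted as back could still be called different from first salt. Of the raised genes back, 243 were called higher and 210 lower in second than in first salt, and of the lowered genes back, 353 higher and 149 lower. Of the genes back, 955 raised and 792 lowered ones had changed under 2-fold in first salt, so that for them a level within 2-fold of first salt can also be within 2-fold of the unstarved one. Where both choosing changes had to reach 2-fold, 46.1% of 2016 raised and 60.6% of 1808 lowered genes were back. These sets were chosen with the first salt cultures that also enter the tested difference, so a chance high or low value there moves genes toward the refed side. Genes were also chosen by naive 1 h salt against naive refed, which shares no culture with second or first salt. There the sides of first salt were set by the direction of the naive change and not by the refed 2 h level. That choice asked for no call in first salt or refed 2 h and took genes that respond within 1 h. It therefore differs in more than the shared cultures and cannot show how much of the refed side came from them. Of 3633 genes raised by naive salt (36.3% of tested genes), 62.9% were within 2-fold of first salt. Among those not within 2-fold, 9.88% of the 3633 were called lower than first salt and 13.8% higher. Of 3915 genes lowered by naive salt (39.1%), 69.1% were within 2-fold, and in the same way 4.9% were called higher than first salt and 12.2% lower. The side short of first salt was the smaller one here, but it is not the refed side of the sets above.

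**Figure D2:**
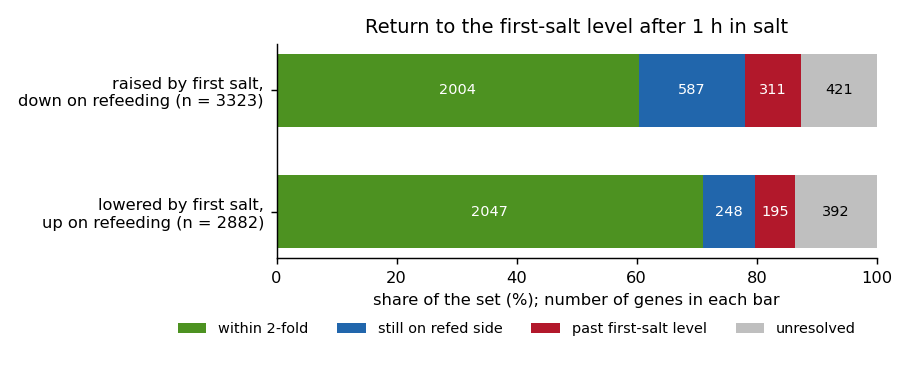
Share of genes (horizontal axis, %) in each class among 3323 genes raised and 2882 genes lowered by the first salt exposure and turned back by refeeding, with the number of genes printed in each bar. Back within 2-fold is the longest part of both bars, with 2004 raised and 2047 lowered genes.

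The share of genes back within 2-fold was lower where the first change had been larger. Among raised genes it was 85.3% of 1119 genes that had changed under 2-fold in first salt against grown cultures, 60.1% of 1453 genes between 2- and 8-fold, 24.9% of 575 between 8- and 64-fold and 18.8% of 176 at 64-fold and more. In that last bin 50.0% were still on the refed side. Among lowered genes the shares back were 90.8%, 70.9%, 43.0% and 19.8% over the same bins, of 872, 1468, 461 and 81 genes, and 50.6% of the last bin was unresolved. No test was made on these bins, which share the first salt cultures with the tested difference.

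Some of the most deeply switched genes came back within 2-fold of their first-salt level. AN1320 had 56.9 and 52.9 CPM in second salt cultures A and B, 66.4 and 59.1 CPM in first salt and 0.264 and 0.157 CPM in refed 2 h. AN10358 had 88.4 and 66.7 CPM in second salt and 64.5 and 55.9 CPM in first salt, with 0.505 and 0.157 CPM in refed 2 h. In both, the cultures of second and first salt lay within 2-fold of each other and more than 100-fold above the refed ones. In the other direction, AN7053 stood at 1.79 and 2.16 CPM in second salt and 1.63 and 1.72 CPM in first salt, against 495 and 591 CPM in refed 2 h. AN4051 stood at 16.6 and 16.1 CPM in second salt and 10.6 and 15.5 CPM in first salt, against 3146 and 3916 CPM in refed 2 h. The 95% intervals of their log2 changes ran from -0.62 to 0.24 for AN1320, -0.18 to 0.91 for AN10358, -0.22 to 0.70 for AN7053 and -0.18 to 0.83 for AN4051.

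Glycolysis had more members back within 2-fold of the first-salt level than any other of the 28 gene lists. Of 11 tested genes 10 had been lowered by first salt and were back within 2-fold, and the median log2 change of the list was 0.02, as over all genes. The glyceraldehyde-3-phosphate dehydrogenase gene gpdA had 889 and 732 CPM in second salt and 601 and 794 CPM in first salt, against 12233 and 13976 CPM in refed 2 h. Its second and first salt values overlapped, and its change was 0.22 ± 0.18 (SE; adjusted p = 0.373). The pyruvate decarboxylase gene pdcA, which leads to ethanol, had 162 and 137 CPM in second salt and 121 and 101 CPM in first salt, against 12469 and 15976 CPM in refed 2 h. The remaining entry of the list, AN8223, whose name could not be checked in the reference annotation, ran the other way through the series. It had 72.0 and 83.0 CPM in second salt and 41.2 and 47.7 CPM in first salt, past its first-salt level, with 12.1 and 8.53 CPM in refed 2 h (log2 change 0.80 ± 0.22, SE; adjusted p = 0.0157). Without second salt culture B the adjusted p of AN8223 was 0.0834, and without first salt culture A it was 0.0909.

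Nitrate assimilation closed again, though not fully to the first-salt level in 4 of 5 genes, which were called higher, against 17.5% of all tested genes (median log2 change 0.71). The nitrate reductase gene niaD had 5.83 and 6.10 CPM in second salt and 3.19 and 2.30 CPM in first salt, where refed 2 h cultures had 2345 and 2502 CPM. Its log2 change of 1.12 ± 0.18 (SE; adjusted p = 0.00071) separated both second salt cultures from both first salt cultures, yet was small beside the -8.67 between second salt and refed 2 h. For niiA, nitrite reductase, second salt cultures had 69.4 and 75.7 CPM and first salt cultures 45.6 and 43.4 CPM, a log2 change of 0.71 ± 0.13 (SE; adjusted p = 0.00168), back within 2-fold. The nitrate transporter gene crnA had 4.72 and 5.96 CPM in second salt and 3.28 and 1.70 CPM in first salt, and crnB, the other nitrate transporter gene, had 25.9 and 24.7 CPM against 18.5 and 15.1 CPM. The call of crnA (adjusted p = 0.00373) was lost in a fit of these 2 groups alone (adjusted p = 0.0547). nirA, the activator of the pathway, had 67.8 and 61.7 CPM in second salt and 55.6 and 50.3 CPM in first salt and was not called (adjusted p = 0.0797). Naive cultures after the same 1 h in salt held more of these transcripts, with 15.1 and 17.9 CPM of niaD (second minus naive log2 -1.46 ± 0.18, SE; adjusted p = 6.06e-05). In second against naive salt 43% of all genes were called, 24.7% higher and 18.2% lower, and 4 of the 5 nitrate genes were called lower.

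Ammonium uptake and assimilation had the largest median change of the 4 nitrogen lists. All 5 genes had been lowered by first salt and all 5 were called higher in second salt, with a median log2 change of 1.72. meaA, a main ammonium transporter gene, had 288 and 226 CPM in second salt and 59.3 and 53.0 CPM in first salt, with 2288 and 2461 CPM in refed 2 h. mepA, which encodes another ammonium transporter, had 323 and 239.8 CPM in second salt and 79.5 and 71.1 CPM in first salt, with 1135 and 1494 CPM in refed 2 h. Their log2 changes were 2.195 ± 0.19 and 1.90 ± 0.20 (SE), with adjusted p of 7.87e-06 and 3.16e-05. The glutamate synthase gene gltA had 207 and 174 CPM in second salt and 56.4 and 59.2 CPM in first salt (log2 change 1.72 ± 0.21, SE; adjusted p = 8.5e-05). Naive cultures after 1 h in salt stood near the second salt level, at 198 and 201 CPM of meaA, 267 and 372 CPM of mepA and 248 and 256 CPM of gltA. Of the 5 genes only gdhA, NADP-dependent glutamate dehydrogenase, was called in second against naive salt, where 43% of all tested genes were called. A miss of the threshold does not show equal levels for the others. gdhA itself had 153 and 138 CPM in second salt and 107 and 92.2 CPM in first salt (adjusted p = 0.00458, and 0.0556 without first salt culture B). glnA, glutamine synthetase, had 1122 and 884 CPM in second salt and 571 and 707 CPM in first salt (adjusted p = 0.0204, but 0.151 without second salt culture A and 0.136 without first salt culture A).

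Of 5 tested nitrogen regulators 3 were called higher and none lower, against 17.5% and 16.6% of all tested genes. areA, the GATA factor that activates genes for the use of nitrogen sources, had 141 and 139.8 CPM in second salt and 75.3 and 76.3 CPM in first salt, with 396 and 259 CPM in refed 2 h (log2 change 0.89 ± 0.18, SE; adjusted p = 0.00267). tamA, whose product works with AreA, had 54.5 and 49.1 CPM in second salt and 20.1 and 14.4 CPM in first salt (log2 change 1.59 ± 0.26, SE; adjusted p = 0.000727). In both, the second salt cultures lay between first salt and refed 2 h. meaB, a bZIP regulator of nitrogen metabolism, had 206 and 170.1 CPM in second salt and 111 and 143 CPM in first salt (adjusted p = 0.0061, but 0.0653 without second salt culture A and 0.0588 without first salt culture A). nmrA, whose product restrains AreA, had 25.3 and 25.7 CPM in second salt and 31.5 and 36.5 CPM in first salt and was not called (adjusted p = 0.0521), but it was called lower with the letters A and B as a replicate block (0.0255), with DESeq2 (0.0337) and in other alternatives up to 0.0473.

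Genes for other nitrogen sources were higher in second than in first salt. Of 11 tested, 9 were called higher and none lower, and the median log2 change was 1.42 against 0.02 over all genes. The proline genes prnB and prnD led the list. prnD, proline oxidase, had 431 and 269 CPM in second salt and 24.6 and 25.1 CPM in first salt, with 8.30 and 7.16 CPM in refed 2 h (log2 change 3.82 ± 0.32, SE; adjusted p = 5.71e-06). prnC, which carries out the next step of proline breakdown, had 1401 and 1075 CPM in second salt and 322 and 295 CPM in first salt (log2 change 2.01 ± 0.16, SE; adjusted p = 4.45e-06). prnB, the proline permease gene, had 128 and 95.1 CPM in second salt and 8.23 and 5.85 CPM in first salt (log2 change 3.98 ± 0.46, SE; adjusted p = 5.68e-05). In all 3 both second salt cultures lay above both first salt cultures. prnC and prnD, which first salt had raised and refeeding lowered, went past their first-salt level, while prnB had 17.8 and 11.9 CPM in refed 2 h, already above first salt, and second salt cultures lay higher still. After 1 h in salt naive cultures had 195 and 224 CPM of prnD and 1078 and 1126 CPM of prnC. In that second against naive comparison neither was called (adjusted p = 0.052 and 0.402). amdS, acetamidase, had 364 and 299 CPM in second salt and 85.0 and 77.1 CPM in first salt, yet 923 and 969.5 CPM in naive salt, above both. uapA, a urate and xanthine permease gene, had 34.4 and 28.1 CPM in second salt and 9.35 and 8.80 CPM in first salt, with 62.7 and 65.1 CPM in refed 2 h, and so was still on the refed side. agaA, arginase, was back, with 277 and 225 CPM in second salt and 195 and 230.0 CPM in first salt (adjusted p = 0.285).

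Of the 4 genes on the list of alcohol use and carbon repression, 3 were called higher in second salt and none lower (median log2 change 1.55), against 17.5% and 16.6% of all tested genes. The alcohol dehydrogenase gene alcA had 8365 and 1064 CPM in second salt cultures A and B and 33.1 and 39.3 CPM in first salt, with 215 and 200.2 CPM in refed 2 h. Both second salt cultures lay far above all first salt and refed cultures, but they differed from each other by over 7-fold. The log2 change was 7.03 ± 0.86 (SE; adjusted p = 8.5e-05). By the rule alcA counts as still on the refed side, since first salt had lowered it, although second salt took it beyond the refed level. aldA, aldehyde dehydrogenase, had 5935 and 2499.8 CPM in second salt and 1135 and 996 CPM in first salt (log2 change 1.98 ± 0.34, SE; adjusted p = 0.000835). alcR, which encodes the activator of both, had 247 and 126 CPM in second salt and 89.4 and 83.7 CPM in first salt (adjusted p = 0.00675, but 0.0936 without second salt culture A). creA, the carbon catabolite repressor gene, was not called, with 445 and 289 CPM in second salt and 184 and 297 CPM in first salt. All 4 genes were higher in second salt culture A than in B. Next to alcA in the identifiers, AN8981 had 849 and 69.3 CPM in second salt and 1.71 and 1.57 CPM in first salt, and AN8980 110.2 and 14.3 CPM against 0.576 and 0.866 CPM, with the same split of the second salt cultures. Naive cultures after 1 h in salt had 1459.5 and 2601 CPM of alcA, between the 2 second salt values.

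Of 8 genes for gluconeogenesis and acetate use 2 were called lower and none higher, where all tested genes had 16.6% lower and 17.5% higher. The median log2 change of the list was -0.28. acuF, the phosphoenolpyruvate carboxykinase gene, had 445 and 240.4 CPM in second salt and 736 and 2187 CPM in first salt (log2 change -2.09 ± 0.62, SE; adjusted p = 0.0204). Its first salt cultures lay far apart, and the call was lost without first salt culture B (log2 change -1.10, adjusted p = 0.238) and without second salt culture B (log2 change -1.72, adjusted p = 0.131).

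**Figure D3:**
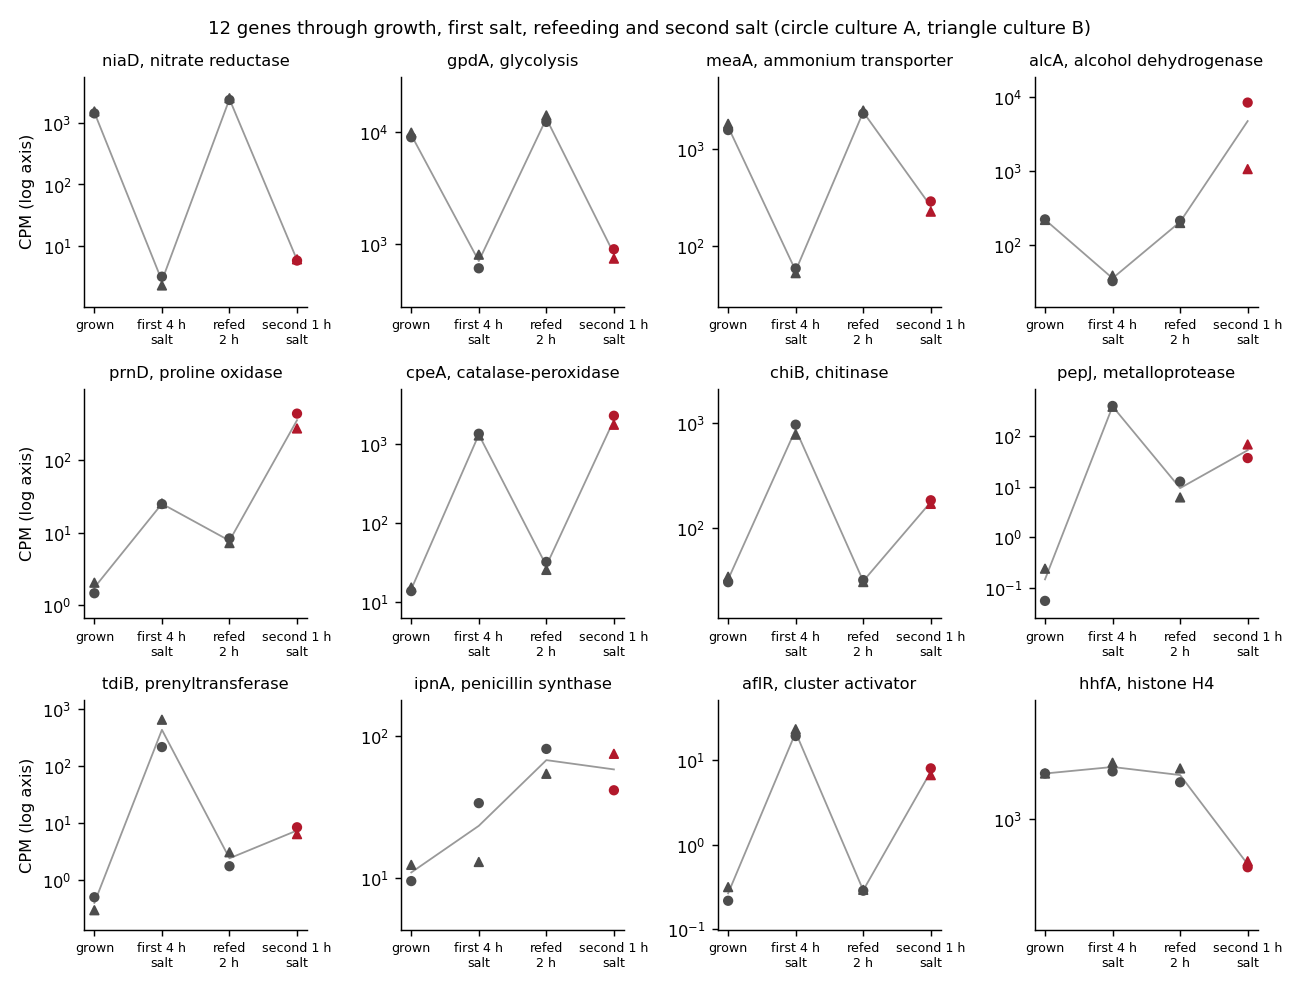
Level of 12 genes in CPM (vertical axes, log scale) in grown, first 4 h salt, refed 2 h and second 1 h salt cultures, in order of treatment. Circles are cultures A, triangles cultures B, the line joins group means, and second salt is red; niaD and gpdA returned close to the first-salt level, chiB, pepJ and tdiB stayed below it, and alcA and prnD went above it.

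All 5 tested genes for the hydrolases of autolysis were called lower in second than in first salt, with a median log2 change of -1.91. chiB, a chitinase of hyphal autolysis, had 184 and 170.2 CPM in second salt and 966 and 776 CPM in first salt, with 32.04 and 30.7 CPM in refed 2 h. pepJ, a secreted metalloprotease gene, had 36.8 and 68.6 CPM in second salt and 398 and 383 CPM in first salt, with 12.6 and 6.11 CPM in refed 2 h. Both had left the refed level but covered only part of the way, and their log2 changes were -2.30 ± 0.12 and -2.89 ± 0.34 (SE; adjusted p = 2.56e-07 and 6.67e-05). prtA, an alkaline protease gene, had 373 and 471 CPM in second salt and 1687 and 1420.5 CPM in first salt, and refeeding had left it high at 1222 and 1047 CPM. engA, a glucanase gene, had 131 and 120.3 CPM in second salt and 346 and 297 CPM in first salt, with 277 and 367 CPM in refed 2 h. Neither was called between refed 2 h and first salt, so by the rule these 2 genes were not counted as having a level to regain. The adjusted p were 7.94e-05 for prtA and 1.66e-05 for engA. Against naive 1 h salt 4 of the 5 were called higher in second salt and none lower, where all tested genes had 24.7% higher and 18.2% lower. The naive cultures had 73.0 and 71.6 CPM of chiB and 8.28 and 8.48 CPM of pepJ. The second salt level thus lay between naive 1 h and first 4 h salt for these 2 genes.

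None of 4 autophagy genes was called by edgeR's test, against 34% of all genes (1 at an unadjusted p under 0.05, and 0 with DESeq2), with a median log2 change of 0.23. atg8, the autophagosome marker, had 462 and 472 CPM in second salt and 489.8 and 508 CPM in first salt, a log2 change of -0.10 with a 95% interval of -0.29 to 0.10 that became 0.0025 with library totals. atg1, the kinase gene of the pathway, had 194 and 169.6 CPM in second salt and 156 and 147 CPM in first salt (adjusted p = 0.0503, and 0.0321 without second salt culture B).

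Genes of asexual development were called in both directions. Of 15 tested 4 were called higher and 3 lower, where all tested genes had 17.5% higher and 16.6% lower, and the median log2 change was 0.12. brlA, the central activator of conidiation, had 68.5 and 92.7 CPM in second salt and 346 and 383 CPM in first salt, with 127 and 74.5 CPM in refed 2 h and 14.9 and 17.8 CPM in naive salt (second minus first log2 -2.18 ± 0.27, SE; adjusted p = 9.08e-05). Second salt cultures thus lay below first salt, near refed 2 h and above naive salt. dewA, a hydrophobin of the spore wall, had 2.28 and 3.31 CPM in second salt and 16.9 and 14.98 CPM in first salt (log2 change -2.51 ± 0.37, SE; adjusted p = 0.000308). rodA, another hydrophobin gene, had 142 and 413 CPM in second salt and 677 and 1072 CPM in first salt, after 2021 and 1619.7 CPM in refed 2 h (adjusted p = 0.0178, but 0.122 without second salt culture A and 0.118 without first salt culture B). Summed over 7 markers of conidiophores and conidia (brlA, abaA, wetA, rodA, dewA, wA and yA), the level was 250.3 and 547 CPM in second salt and 1072 and 1500.4 CPM in first salt, and none of the 7 was at 0 in any of these cultures. Without rodA the sum was 108 and 134 CPM in second salt and 395 and 428 CPM in first salt, most of it brlA. Of the 7 markers brlA, rodA and dewA were called lower, and wA was called higher (log2 change 0.51). The genes abaA, wetA and yA were not called, with log2 changes of 0.31, 0.46 and 0.06, so the fall of the sum does not hold for every marker. The samples are labelled mycelium, and the part of spore-forming cells in the other differences was not tested. Upstream of brlA, fluG had 54.6 and 52.7 CPM in second salt and 31.5 and 27.7 CPM in first salt (log2 change 0.86 ± 0.10, SE; adjusted p = 8.22e-05) and flbE 61.0 and 82.4 CPM in second salt and 32.4 and 29.9 CPM in first salt (log2 change 1.20 ± 0.17, SE; adjusted p = 0.000283). The gene flbB was also called higher (log2 change 0.65), while flbA, flbC and flbD were not called (-0.29, -0.50 and 0.12).

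Regulators of sexual development and the velvet family went above the first-salt level more than below it. Of 4 sexual regulators 2 were called higher and none lower, and of 6 velvet and secondary metabolism regulators 4 were called higher and 1 lower, with medians of 0.51 and 0.52. veA, the light-regulated velvet gene, had 841 and 736 CPM in second salt and 399 and 403 CPM in first salt, with 319 and 273 CPM in refed 2 h and 499 and 501 CPM in naive salt. Second salt was the highest of these 4 groups, with a log2 change of 0.98 ± 0.12 over first salt (SE; adjusted p = 7.23e-05) and of 0.66 ± 0.12 over naive salt (SE; adjusted p = 0.000773). velC, another velvet gene, had 144 and 173 CPM in second salt and 42.7 and 29.3 CPM in first salt (log2 change 2.14 ± 0.22, SE; adjusted p = 2.7e-05), and naive salt with 163 and 132 CPM overlapped second salt. vosA, a velvet gene of spore survival, had 133 and 134 CPM in second salt and 90.9 and 81.8 CPM in first salt (log2 change 0.63 ± 0.12, SE; adjusted p = 0.00179). nsdD, a GATA factor needed for fruiting bodies, had 274 and 252 CPM in second salt and 113 and 123 CPM in first salt (log2 change 1.15 ± 0.15, SE; adjusted p = 0.000115), and steA, also needed for them, had 486 and 500.0 CPM in second salt and 301 and 275 CPM in first salt (adjusted p = 0.00171). laeA, the regulator of many metabolite clusters, was back within 2-fold. It had 173 and 167 CPM in second salt and 224 and 191 CPM in first salt, 82.9 and 73.2 CPM in refed 2 h and 61.1 and 60.3 CPM in naive salt. Its call against first salt (log2 change -0.29 ± 0.10, SE; adjusted p = 0.0363) was lost without second salt culture A (adjusted p = 0.0925), second salt culture B (0.135) or first salt culture A (0.273), while the log2 difference over naive salt was 1.48 ± 0.10 (SE; adjusted p = 1.25e-06). nosA had 1180.3 and 1172 CPM in second salt and 1121 and 870.1 CPM in first salt, and rosA 80.6 and 78.0 CPM in second salt and 142 and 93.2 CPM in first salt, and neither was called.

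The terrequinone cluster, which makes a bisindole pigment, did not come back. All 3 tested genes were called lower than in first salt, with a median log2 change of -5.88. tdiB, the prenyltransferase gene, had 8.29 and 6.27 CPM in second salt and 213 and 644 CPM in first salt, with 1.71 and 3.01 CPM in refed 2 h and 0.927 and 0.446 CPM in naive salt. tdiA, the synthetase gene, had 5.38 and 2.93 CPM in second salt and 124 and 375 CPM in first salt, and tdiD, the aminotransferase gene, 2.70 and 1.71 CPM in second salt and 28.3 and 74.0 CPM in first salt. Every second salt culture lay more than 10-fold below every first salt culture in each of the 3 genes, although the first salt cultures themselves differed by 3.02-fold at the median. The log2 changes were -5.88 ± 0.50 for tdiB, -5.92 ± 0.64 for tdiA and -4.54 ± 0.46 for tdiD (SE; adjusted p = 6.54e-06, 3.57e-05 and 2.33e-05). Against naive salt tdiA and tdiB were called higher in second salt, with log2 differences of 2.51 ± 0.66 and 3.41 ± 0.51 (SE; adjusted p = 0.00919 and 0.000256).

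The orsellinic acid cluster was called lower in 3 of 5 genes, of which only orsB had a level to regain by the rule. orsB had 1.16 and 1.98 CPM in second salt and 14.1 and 66.8 CPM in first salt (log2 change -4.68 ± 0.78, SE; adjusted p = 0.000765). orsA, the polyketide synthase gene, had 2.21 and 2.31 CPM in second salt and 3.53 and 14.4 CPM in first salt, and orsC 1.24 and 1.46 CPM in second salt and 4.42 and 13.2 CPM in first salt. Neither was called between refed 2 h and first salt (refed minus first log2 0.36 and 0.72). Both were called lower in second salt than in refed 2 h (log2 -2.35 and -3.42). The call of orsA against first salt was lost with DESeq2 (adjusted p = 0.0593) and, in edgeR's test, with library totals (0.0506) and with technical library 2 alone (0.0563). In this cluster first salt culture B was above A in all 5 genes, 4.05-fold at the median, and the calls of orsA and orsC rested on it. Without first salt culture B the adjusted p was 0.568 for orsA and 0.138 for orsC, without second salt culture A 0.173 and 0.0886, and without second salt culture B 0.151 and 0.0633. The benzaldehyde derivative cluster had the same split in a stronger form. Its 11 genes were all higher in first salt culture B than in A, 8.85-fold at the median, and all lower in second salt culture B than in A, so a median log2 change of -3.09 came with only 2 calls, both lower.

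Genes for sterigmatocystin, a carcinogenic polyketide, gave 5 lower and 1 higher call among 17 tested, about the share of all tested genes (34%), with a median log2 change of -0.54. DESeq2 called 9 lower and 1 higher. aflR, the activator of the cluster, had 7.98 and 6.63 CPM in second salt and 19.2 and 23.2 CPM in first salt, with 0.285 and 0.292 CPM in refed 2 h and 4.44 and 2.52 CPM in naive salt. It rose again within 1 h but stopped below the first-salt level (log2 change -1.54 ± 0.30, SE; adjusted p = 0.00204), and lay above naive salt by 1.07 ± 0.30 (SE; adjusted p = 0.013). The strain behind each aflR value is not known here. stcA, the polyketide synthase gene of the pathway, was low at both exposures and back within 2-fold. It had 1.54 and 1.31 CPM in second salt and 1.17 and 1.15 CPM in first salt (adjusted p = 0.405), against 10.3 and 12.2 CPM in refed 2 h. AN7819 had 20.5 and 22.1 CPM in second salt and 39.0 and 37.6 CPM in first salt, called lower, and AN7805 1.80 and 1.25 CPM in second salt and 0.475 and 0.642 CPM in first salt, called higher.

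Of the penicillin genes 2 of 3 were called higher, with a median log2 change of 1.15. ipnA, isopenicillin N synthase, had 41.4 and 74.7 CPM in second salt and 33.6 and 12.9 CPM in first salt, with 80.9 and 54.0 CPM in refed 2 h and 10.6 and 10.6 CPM in naive salt. The second salt cultures were near the refed level that preceded them. acvA, the tripeptide synthetase gene, had 2.68 and 4.46 CPM in second salt and 2.03 and 1.18 CPM in first salt, and aatA, the acyltransferase gene, 60.7 and 81.3 CPM in second salt and 53.4 and 37.5 CPM in first salt. Adjusted p was 0.017 for ipnA, 0.0398 for acvA and 0.0642 for aatA, which was not called, though it was with DESeq2 (0.0446), without first salt culture A (0.0403) and with crossed letters as a block (0.0336). In a fit of these 2 groups alone ipnA and acvA lost their calls (adjusted p = 0.072 and 0.0599). Leaving out second salt culture B ended the calls of ipnA and acvA (adjusted p = 0.155 and 0.259), as did leaving out first salt culture B (0.111 and 0.246). With the letters A and B as a replicate block, acvA had an adjusted p of 0.0527. Against naive salt ipnA and acvA were higher by 2.45 ± 0.39 and 2.38 ± 0.43 (SE; adjusted p = 0.000386 and 0.000867).

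In the other clusters the counts can be read against the 17.5% of all tested genes called higher and 16.6% called lower. Of the monodictyphenone genes 1 of 11 was called lower, and mdpG, its polyketide synthase gene, had 8.84 and 8.83 CPM in second salt and 7.09 and 5.38 CPM in first salt (adjusted p = 0.179). None of 4 emericellamide genes was called by edgeR's test (0 at an unadjusted p under 0.05, 0 with DESeq2), and none of 3 asperthecin genes (1 at an unadjusted p under 0.05, 1 with DESeq2). aptA, the asperthecin synthase gene, had 19.2 and 23.2 CPM in second salt and 20.2 and 17.1 CPM in first salt. Aspyridone genes gave 1 higher call of 6, asperfuranone 1 higher and 2 lower of 6, cichorine 1 higher and 1 lower of 5, and austinol 3 lower of 11. Over all 28 lists 46 members were called higher and 41 lower of 191 tested.

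All 5 histone genes were called lower in second than in first salt, with a median log2 change of -1.42. hhfA, a histone H4 gene, had 546 and 589 CPM in second salt and 1831 and 2043 CPM in first salt, with 1597 and 1901 CPM in refed 2 h, 1785 and 1782 CPM in grown and 275 and 279 CPM in naive salt. htaA, histone H2A, had 926 and 1037 CPM in second salt and 2898 and 3599.8 CPM in first salt, and htbA, histone H2B, 1078 and 1116 CPM in second salt and 2626 and 3224 CPM in first salt. The second salt cultures were below all first salt, refed and grown cultures in these 3 genes. Changes on the log2 scale were -1.77 ± 0.12 for hhfA, -1.73 ± 0.14 for htaA and -1.42 ± 0.14 for htbA (SE; adjusted p = 1.64e-06, 4.45e-06 and 2.14e-05). hhtA, histone H3, had 839 and 776 CPM in second salt and 1495 and 1610.0 CPM in first salt, and htzA, the variant H2A.Z, 123 and 141 CPM in second salt and 184 and 188 CPM in first salt. Naive cultures after 1 h in salt had still less hhfA and htaA, by 1.03 ± 0.12 and 0.71 ± 0.13 (second minus naive log2, SE; adjusted p = 4.11e-05 and 0.00116).

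Heat shock genes also fell. All 4 tested were called lower (median log2 change -1.10), and the 3 that first salt had lowered went past their first-salt level. hsp90 had 739 and 883 CPM in second salt and 2173 and 2578 CPM in first salt, with 4297 and 5109 CPM in refed 2 h and 1609 and 1507 CPM in naive salt. hsp70 had 1054 and 1250.1 CPM in second salt and 2626 and 3645 CPM in first salt, and hsp104, a disaggregase gene, 372 and 510.2 CPM in second salt and 711 and 769.9 CPM in first salt. Their log2 changes were -1.55 ± 0.17, -1.44 ± 0.21 and -0.75 ± 0.16 (SE; adjusted p = 3.64e-05, 0.000286 and 0.00358). Second salt was also below naive salt for all 3, by -0.94, -1.06 and -1.18 on the log2 scale (adjusted p = 0.000776, 0.00147 and 0.000129).

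Oxidative stress genes were mixed, with 4 of 9 called higher and 1 lower, against 17.5% and 16.6% of all tested genes. catA, a catalase of spores, had 97.6 and 60.3 CPM in second salt and 24.3 and 26.1 CPM in first salt, with 4.68 and 5.99 CPM in refed 2 h (log2 change 1.65 ± 0.28, SE; adjusted p = 0.000945). catC, another catalase gene, had 141 and 129 CPM in second salt and 68.7 and 74.0 CPM in first salt, and catB, a catalase of growing hyphae, 94.8 and 88.3 CPM in second salt and 48.9 and 49.2 CPM in first salt (adjusted p = 0.000698 and 0.000446). cpeA, the catalase-peroxidase gene, was switched on at both exposures, with 2245 and 1726 CPM in second salt and 1329 and 1262 CPM in first salt, and 31.8 and 25.2 CPM in the refed cultures between the exposures. Its log2 change of 0.62 ± 0.16 (SE; adjusted p = 0.012) kept it within 2-fold, and the call was lost without second salt culture A (adjusted p = 0.118) and without first salt culture B (adjusted p = 0.0753). Of 5 trehalose and glycerol genes 1 was called higher.

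**Figure D4:**
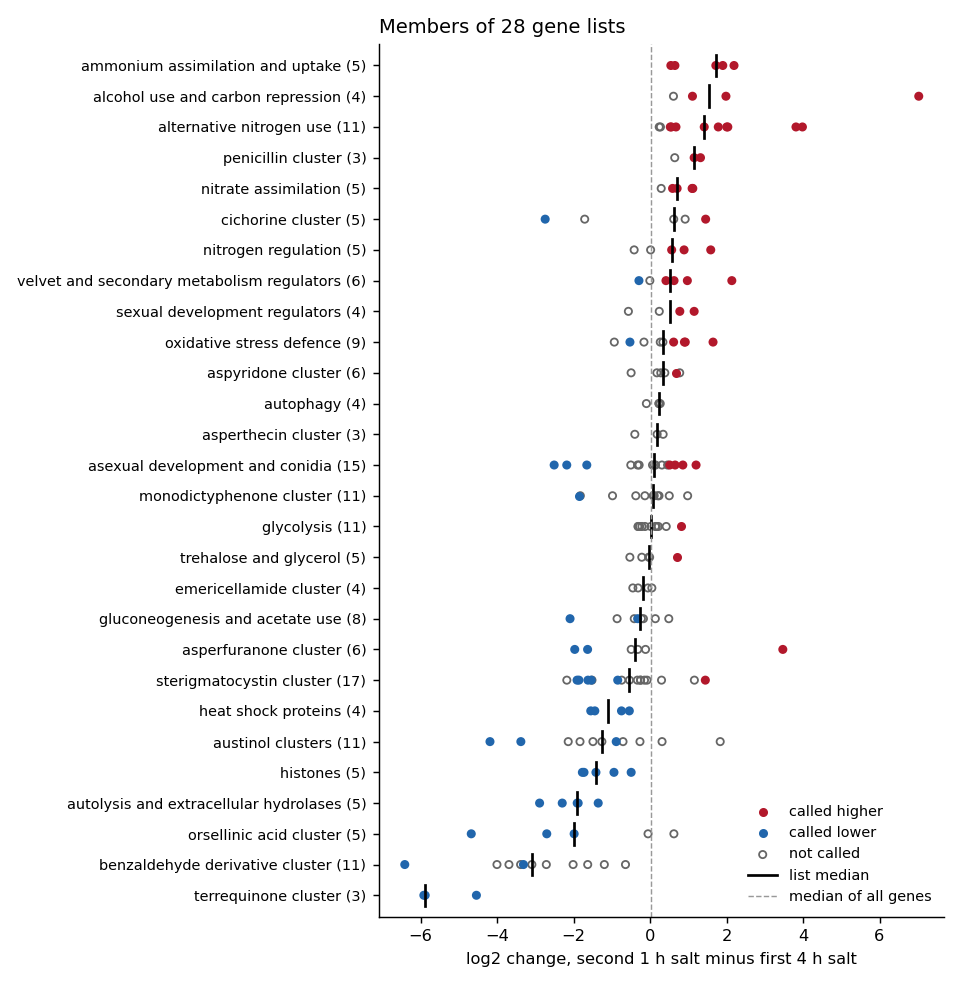
Log2 change, second 1 h salt minus first 4 h salt (horizontal axis), of the tested members of 28 gene lists, with the number tested in parentheses. Filled red and blue points are members called higher and lower, open circles members not called, black bars list medians and the broken line the median of all genes (0.02); the ammonium list has the highest median, 1.72, and terrequinone the lowest, -5.88.

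Among genes that were called, reached a mean of 10 CPM in the higher group and had no overlap of cultures, the largest fall was AN6476, with 5.74 and 5.11 CPM in second salt and 1889.6 and 2511 CPM in first salt, against 5.14 and 4.67 CPM in refed 2 h. Grown cultures had only 0.0271 and 0.131 CPM, and the second exposure did not lift it off the refed level within 1 h (log2 change -8.66 ± 0.60, SE; adjusted p = 1.74e-06). AN0587 had 0.611 and 0.287 CPM in second salt and 41.1 and 144 CPM in first salt, and its neighbour by number AN0588 0.785 and 0.621 CPM in second salt and 9.31 and 26.8 CPM in first salt. AN11510 also stayed at the refed level, with 1.34 and 1.49 CPM in second salt and 31.2 and 45.6 CPM in first salt. Other genes were on their way. AN2653 had 5.25 and 3.60 CPM in second salt and 145 and 111 CPM in first salt, with 0.11 and 0.314 CPM in refed 2 h. AN6723 had 88.0 and 74.4 CPM in second salt and 727 and 641 CPM in first salt, with 1.01 and 1.44 CPM in refed 2 h and 88.6 and 99.7 CPM in naive salt, so second and naive salt overlapped after the same 1 h. AN7900, of the benzaldehyde cluster, completed the largest falls with the terrequinone genes and orsB.

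Within the same limits the largest rises, beside alcA and its neighbours by number and prnB and prnD, included genes that were already high in refed 2 h cultures. AN8953 had 4647 and 3162 CPM in second salt and 67.6 and 95.1 CPM in first salt, with 6029 and 5382 CPM in refed 2 h, so it had hardly left the refed level (log2 change 5.59 ± 0.29, SE; adjusted p = 2.56e-07). In naive salt it had 58.9 and 63.1 CPM, near the first salt values. agdC, named so in the reference annotation, had 202 and 149 CPM in second salt and 14.49 and 13.8 CPM in first salt, with 381 and 339.8 CPM in refed 2 h and 11.98 and 14.4 CPM in naive salt. AN3402 had 118 and 79.4 CPM in second salt and 1.57 and 1.39 CPM in first salt, with 8.52 and 8.67 CPM in refed 2 h and 8.10 and 6.07 CPM in naive salt. Second salt was above naive salt in all 3, by 5.999 ± 0.29, 3.73 ± 0.16 and 3.80 ± 0.35 on the log2 scale (SE; adjusted p = 1.59e-07, 5.77e-08 and 9.7e-06). AN3388 had 84.6 and 72.2 CPM in second salt and 5.44 and 7.08 CPM in first salt, and 1.02 and 0.83 CPM in naive salt (second minus first log2 3.65 ± 0.35, SE; adjusted p = 1.69e-05). AN7400 had 25.5 and 44.6 CPM in second salt and 2.23 and 1.78 CPM in first salt, on the way down from 106 and 164 CPM in refed 2 h, and AN7402 3.46 and 2.44 CPM in second salt and 0.216 and 0.0896 CPM in first salt.

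Genes that went past their first-salt level included some of the most strongly switched. AN4688 had 571 and 515 CPM in second salt and 214 and 183 CPM in first salt, with 2.57 and 2.04 CPM in refed 2 h and 1455 and 1379.6 CPM in naive salt (second minus first log2 1.45 ± 0.13, SE; adjusted p = 9.8e-06). AN1553 had 385 and 325 CPM in second salt and 111 and 158 CPM in first salt, with 314 and 329 CPM in naive salt, and AN5421 had 792 and 390.4 CPM in second salt and 214 and 216 CPM in first salt, with 345 and 364 CPM in naive salt. In these 3 genes both second salt cultures lay above both first salt cultures, and naive salt was also above first salt. On the lowered side AN4135 had 15.05 and 18.1 CPM in second salt and 30.7 and 30.0 CPM in first salt, with 1151 and 1463 CPM in refed 2 h and 101 and 140.0 CPM in naive salt. AN0553 had 1.74 and 1.72 CPM in second salt and 3.54 and 3.52 CPM in first salt, with 194 and 237 CPM in refed 2 h. Their log2 changes were -0.87 ± 0.20 and -1.03 ± 0.22 (SE; adjusted p = 0.00471 and 0.00328).

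Not every gene changed by first salt was called reset by refeeding, and genes without that call were not counted as having a level to regain. A missed call does not show an unchanged level. Such genes included dbaI, with a refed minus first log2 change of -3.37, and engA, with 0.0018. First salt raised 508 genes that were not called between refed 2 h and first salt, and of these 43 were called higher and 115 lower in second than in first salt, where all tested genes had 17.5% higher and 16.6% lower. Of 463 genes that first salt lowered and that were not called between refed 2 h and first salt, 119 were called higher and 66 lower. The protease and glucanase genes prtA and engA were among the 508.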

How the data were processed

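Polyadenylated RNA of mycelium was sequenced with the TruSeq kit v2 as 50 nt single ends, per the labels' protocols. Strand is not kept by this kit, so overlapping and antisense genes cannot be told apart. The authors mapped the reads to the genome of strain FGSC A4, per the labels' protocols, and the submitters' processing notes list BWA, HTSeq, edgeR, limma and Trimmomatic 0.36 without saying what each did. Not given in the sources used here is the gene annotation. The authors deposited raw counts per gene and library, used here, and log2 FPKM per group with log2 exon length, not used further.

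The table held 10681 genes, 97 with no count. Counts of technical libraries 1 and 2 were summed per culture: such pairs gave a chi-square of 2.19 to 2.27 per degree of freedom, against 187 between second salt cultures A and B and 136 between first salt cultures. With R 4.3.3 and edgeR 4.0.16, filterByExpr (minimum count 10, minimum total 15) kept 10022 genes, and the 659 left out held 0.00149% of the counts. After TMM scaling, 1 model with group means covered the 16 cultures, with 8 residual degrees of freedom and a common biological coefficient of variation of 0.160. Tests were 2-sided, with Benjamini-Hochberg adjustment over all tested genes and a threshold of 0.05. DESeq2 1.42.0 served as an alternative. On simulated data for second minus first salt with 10022 genes, 38 of 50 genes set at a log2 change of -1 and 45 of 50 at 1 were called, all 50 at -2 and all 50 at 2, and 13 of 9822 unchanged genes. The changed genes were drawn from those with a mean of at least 10 CPM, and all other means were equal across groups. These rates were not measured for genes at lower levels or where as many genes change as in the real data.

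The rule for naming genes took the 10 largest rises and 10 largest falls that were called, reached a mean of 10 CPM in the higher group and had no overlap of cultures, up to 5 genes per class, up to 4 members per list and aflR, stcA and stcU. Genes so named may be left out, and 1 list member is not reported here by name. Of 216 members of 28 lists 210 were in the table and 191 were tested. Their symbols are background knowledge: the reference annotation (assembly ASM1142v1), which held 9967 of the identifiers and served for names and neighbours, gave a symbol for 65, the same one for 45. The comparison, lists and rules were chosen with earlier results of these data known.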

Additional observations from a re-analysis of the deposited data

How the results depend on the processing

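The sign of the log2 change of each gene given with its CPM values was kept under every alternative but for atg8, which had 0.0025 with library totals. Second minus first salt gave 3411 calls, 3713 with DESeq2 and 2131 to 2807 with a culture left out (higher 1025 to 1369, lower 1054 to 1442), the lowest values being 2188 without second salt culture A and 2131 without first salt culture B. A fit of these 2 groups alone gave 2617 calls, 1154 of them higher. Of the genes given with CPM values, 7 lost their call in that fit. Beside crnA, ipnA and acvA these were glnA, meaB, cpeA and laeA (adjusted p = 0.0639, 0.0691, 0.0706 and 0.150 in edgeR's test). The call of laeA was also lost with library totals (0.225). The labels state no pairing of letters across groups, and the B minus A differences of second and first salt had a correlation of -0.15 over 7355 genes, against 0.36 for refed 2 h and first salt, 0.13 for grown and first salt and -0.36 for second salt and refed 2 h. The replicate block gave 3373 calls, and a crossed replicate block, added after seeing the data, 3440. List members called ran from 37 to 41 higher and from 28 to 39 lower with a culture left out. DESeq2 called 10 sterigmatocystin genes, against 6.

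Class counts moved with the limit, the choice of genes, the scaling and the culture left out. For genes chosen by naive salt, past and refed side stand for calls beyond and short of first salt along the naive change. For raised genes, back within 2-fold became 954 with a 1.5-fold limit, 929 where both choosing changes had to be 2-fold and 3195 with library totals; past became 512, 503 (chosen by naive salt) and 498 (library totals); refed side became 359 (naive salt); unresolved became 1085 (1.5-fold) and 645 (library totals). Genes to regain became 2016 raised and 1808 lowered with 2-fold choosing changes, and 1817 lowered with library totals. For lowered genes, back became 1117 (1.5-fold), 1096 (2-fold choosing) and 1136 (library totals), past 329 (1.5-fold), 477 (naive salt) and 114 (library totals), refed side 528 and unresolved 908 (1.5-fold). With a culture left out, raised genes to regain ran from 2979 to 3307, back from 1512 to 1968, refed side from 473 to 562, past from 225 to 304 and unresolved from 358 to 794. For lowered genes the ranges were 2582 to 2893, 1668 to 1966, 221 to 268, 134 to 217 and 394 to 635. The cause of these shifts was not tested, beyond the narrower limit itself. With n = 2 cultures, a missed call does not show equal levels.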

Other observations

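Genes for siderophores, the iron-binding molecules that fungi secrete and store, stood lower in second than in first salt as a run of neighbours. In the gene order of the reference annotation, AN6239 to AN6234 were 6 adjacent genes that were each called at least 2-fold lower, with a median log2 change of -2.11. This run and the others named here were found by searching for 5 or more such neighbours after the values had been seen, so they carry no test. sidD, which in Aspergillus fumigatus encodes the synthetase of an extracellular siderophore, had 10.9 and 10.6 CPM in second salt and 69.7 and 57.9 CPM in first salt, with 124 and 113 CPM in refed 2 h, 574 and 725 CPM in grown and 11.3 and 17.4 CPM in naive salt. sidH had 5.10 and 5.38 CPM in second salt and 24.6 and 22.2 CPM in first salt, mirD 3.05 and 3.09 CPM in second salt and 15.4 and 10.1 CPM in first salt, and sidJ 14.04 and 14.9 CPM in second salt and 43.7 and 30.8 CPM in first salt. AN6237 had 10.3 and 9.72 CPM in second salt and 23.2 and 17.8 CPM in first salt, and AN6234 4.86 and 5.24 CPM in second salt and 31.6 and 24.8 CPM in first salt. All 6 had both second salt cultures below both first salt cultures, and naive salt lay near second salt.

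A second run of 5 genes, AN8513 to AN8520, held the 3 terrequinone genes and had a median log2 change of -4.54. Its other members were AN8518, with 15.8 and 11.9 CPM in second salt and 108 and 232 CPM in first salt, and AN8520, with 11.8 and 9.34 CPM in second salt and 70.4 and 109.7 CPM in first salt. AN7907 to AN7912, which include orsA, orsB and orsC, and AN10368 to AN10372 were runs of 5 genes with medians of -1.99 and -1.68. No run of 5 or more neighbours was called at least 2-fold higher.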
